A study of Mus musculus with 2 samples.

Results

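The genes described here are 10 mouse genes for scavenger receptors and marginal zone macrophage proteins: Marco, Msr1, Cd36, Scarb1, Scarb2, Stab1, Stab2, Cd209b, Siglec1 and Nr1h3. They were chosen by name, and all 10 were found among the 43346 Ensembl genes of the tables. The material was spleen tissue of 1 male C57BL/6J mouse aged 10 weeks, with no treatment or mutation named in the labels. PolyA-selected RNA from this tissue gave 2 libraries, technical replicate 2 and technical replicate 1 of biological replicate 1, both with a labelled size range of 350 to 450. Per the labels, technical replicate 2 was made in 2015, after the 2014 publication that used technical replicate 1, so the date of preparation and the replicate cannot be told apart.

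Scavenger receptors are surface proteins that bind modified lipoproteins, bacterial surfaces and cell debris and carry them into the cell. In mouse spleen the marginal zone, a blood-filled rim around the white pulp, holds a class of macrophages that display Marco and Cd209b (also called SIGN-R1), while an inner ring of metallophilic macrophages displays Siglec1 (CD169). The nuclear receptor Nr1h3 (LXR alpha) senses oxysterols and is required in mice for both of these macrophage classes. Other genes of the group also serve other cells, since Stab1 and Stab2 line sinusoidal endothelium and Cd36 is found on red pulp macrophages, endothelium and platelets.

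All 10 genes were detected in both libraries, but with very different numbers of reads. The 10 genes held 1864 reads in technical replicate 2, against 24202 in technical replicate 1. Technical replicate 2 was the shallower library, with 3806381 estimated read counts on genes against 27528824 in technical replicate 1, and 9390 against 13937 genes at 1 TPM or more, a level scaled for transcript length and library size. The erythroid marker list summed to 214217.80 TPM in technical replicate 2, against 36036.69 TPM in technical replicate 1, and these transcripts take up part of the total by which every other TPM is expressed. The labels call the libraries technical replicates, and with 1 library on each side there was no replicate check and no p-value. The libraries differed beyond counting error in erythroid transcripts, in other cell type markers and in a trend with GC content given below, and whether both were made from the same RNA was not tested. Each ratio below therefore compares these 2 libraries. Every interval below covers counting error only.

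The sequences that tell apart the transcript forms discussed below come from 3 scavenger receptor genes, and each was read from the GENCODE M21 transcripts on GRCm38, all on the minus strand and shown 5′ to 3′. For Scarb1, the 129-base exon at chr5:125281105-125281233 is exon 12 of 13 in Scarb1-201, and its last 3 bases, in capitals, are the stop codon of the long-known form of the protein, SR-BI.
Scarb1-201 exon: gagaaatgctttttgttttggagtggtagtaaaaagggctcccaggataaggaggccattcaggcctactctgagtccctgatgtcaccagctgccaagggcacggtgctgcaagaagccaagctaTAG
Scarb1-202 lacks that exon, which changes the coding end of the transcript, and capitals mark the 10 bases on each side of the junction that replaces it (30 bases from each exon, within chr5:125277836-125283928).
Scarb1-202 junction: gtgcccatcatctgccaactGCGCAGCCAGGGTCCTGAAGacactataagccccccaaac
For Stab1, the short transcript Stab1-207 lies at the 3′ end of the gene, and its first 222 bases are coding exons of 105 and 117 bases (within chr14:31139297-31139848), with the 10 bases on each side of their junction in capitals.
Stab1-207 junction: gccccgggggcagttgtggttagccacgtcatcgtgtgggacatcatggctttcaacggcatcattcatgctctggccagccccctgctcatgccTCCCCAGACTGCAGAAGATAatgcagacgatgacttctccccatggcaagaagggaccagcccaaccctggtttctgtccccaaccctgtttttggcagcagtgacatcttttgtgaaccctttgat
That junction passes over a 147-base coding exon, at chr14:31139507-31139653, which is exon 67 of 69 in the full-length Stab1-201.
Stab1-201 exon: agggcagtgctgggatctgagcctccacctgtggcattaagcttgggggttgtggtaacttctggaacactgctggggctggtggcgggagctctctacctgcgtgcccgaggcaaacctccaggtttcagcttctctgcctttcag
For Msr1, both transcripts share the same 30 bases up to a splice site on chr8, and capitals mark what follows it: 8 last coding bases in Msr1-202, and in Msr1-201 the start of exon 9 of 10, which belongs to 320 coding bases that Msr1-202 lacks.
Msr1-202 junction: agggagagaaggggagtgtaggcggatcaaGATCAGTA
Msr1-201 junction: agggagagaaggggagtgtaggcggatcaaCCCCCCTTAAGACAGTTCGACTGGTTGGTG
The shared bases with the Msr1-202 tail lie within chr8:39605975-39608114, and those with the Msr1-201 continuation within chr8:39589449-39608114.

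Within each library the order of the genes by TPM, which is per transcript length, differed. In technical replicate 2 the order was led by Marco at 78.19 TPM, Stab1 at 53.84 TPM and Nr1h3 at 32.79 TPM, and each stood apart from the next by its 95% counting interval. In technical replicate 1 it was led by Cd36 at 166.75 TPM, Marco at 81.39 TPM and Scarb2 at 72.20 TPM, again each apart from the next. At the low end of technical replicate 2, Cd209b, Msr1 and Siglec1 could not be set apart from each other, and all 3 were below 1 TPM. Scarb2 and Cd36 overlapped each other in that library, as did Scarb1 and Stab2. In technical replicate 1 all 10 genes exceeded 1 TPM, and the overlapping neighbours were Nr1h3 with Stab1 and Stab1 with Cd209b. The 10 genes summed to 199.4 TPM in technical replicate 2, against 461.49 TPM in technical replicate 1. Marco made up 39.2% of that sum in technical replicate 2 and 17.6% in technical replicate 1, while Cd36 made up 5.60% in technical replicate 2 and 36.1% in technical replicate 1.

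**Figure D1:**
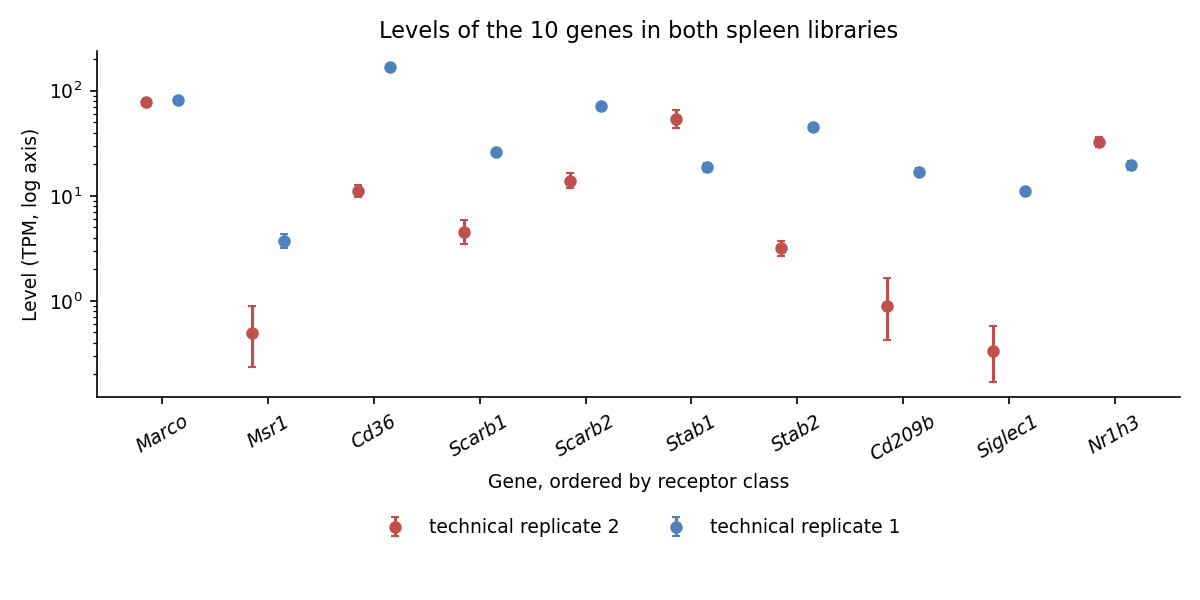
Level of each gene in TPM (log axis) in technical replicate 2 (red) and technical replicate 1 (blue), with exact Poisson 95% intervals of the count scaled to TPM. Marco sits at about the same height in both libraries (78.19 TPM in technical replicate 2 and 81.39 TPM in technical replicate 1), Stab1 and Nr1h3 are higher in technical replicate 2, and the other 7 are higher in technical replicate 1.

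Because the 2 libraries differed in depth and in erythroid content, the ratio of technical replicate 2 over technical replicate 1 was taken after TMM scaling, which sets the libraries level on the bulk of their genes, and a gene was called higher or lower where the whole 95% interval lay beyond 1.5-fold. By this measure 3 of the 10 genes were higher in technical replicate 2 (Marco, Stab1 and Nr1h3), 3 were lower (Cd36, Cd209b and Siglec1) and 4 were neither. Genes were tested where they averaged at least 1 TPM and held 50 counts or more in the sum of both libraries, which all 10 did. Of all 12467 genes tested, 28.0% were called higher and 32.6% lower, so the members' counts were near the background. The 10 genes had a median log2 ratio of -0.08, against -0.27 over all tested genes. With scaling by total counts, 2 of the 10 were higher and 6 lower, beside 14.6% and 58.5% of all tested genes. Under all 3 count scalings together (TMM, DESeq2 size factors and total counts), with the TPM ratio on the same side of equality, 1 gene was higher (Nr1h3) and 3 were lower (Cd36, Cd209b and Siglec1), beside 11.8% and 30.5% of tested genes. The median ratio of all tested genes was -1.53 on the log2 scale by total counts and -2.70 by deposited TPM, so a log2 ratio is best read against the median of its own scaling.

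**Figure D2:**
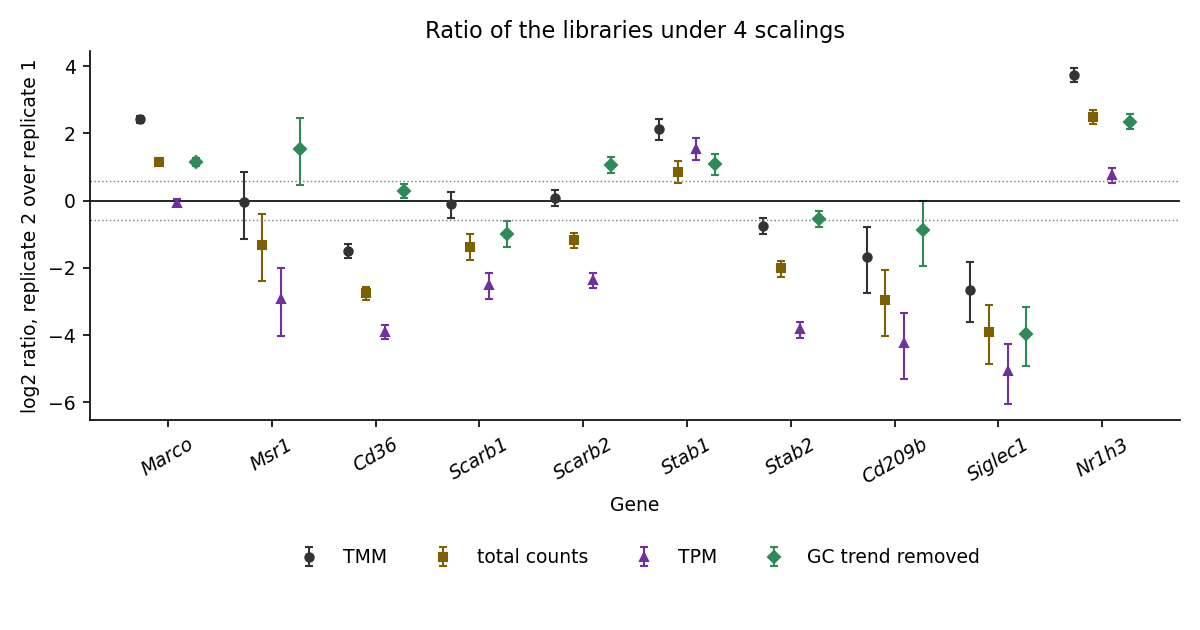
Log2 ratio of technical replicate 2 over technical replicate 1 for each gene under TMM scaling (circles), total counts (squares), deposited TPM (triangles) and TMM with the GC trend removed (diamonds), with exact 95% counting intervals and dotted lines at 1.5-fold. Siglec1, Cd209b, Stab2 and Scarb1 lie below 0 and Stab1 and Nr1h3 above 0 under all 4, while Cd36, Msr1, Marco and Scarb2 change side.

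The class A receptors, trimeric proteins with a collagen-like stalk, were represented by Marco and Msr1. Marco, a receptor for bacteria and unopsonised particles and a defining protein of marginal zone macrophages, lies at chr1:120474538-120505024. It had 822 reads and 78.19 TPM in technical replicate 2 (interval 72.9 to 83.7), against 2670 reads and 81.39 TPM in technical replicate 1 (interval 78.3 to 84.5). These TPM intervals overlap, so the deposited levels differed by less than counting error. Both TPM values lie above the intervals deposited with them. Those were 65.4 to 75.2 in technical replicate 2 and 74.9 to 81.3 in technical replicate 1. Around posterior means of 70.22 and 78.05 TPM, the deposited intervals overlap only slightly. The TMM-scaled log2 ratio was 2.42 (2.30 to 2.53), a higher ratio than that of 87.4% of the tested genes. Its log2 TPM ratio was -0.06, while the median tested gene had -2.70. Marco ranked 697 among all genes by TPM in technical replicate 2 and 1682 in technical replicate 1.

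Msr1, a receptor for modified low-density lipoprotein on many macrophages, lies at chr8:39581685-39642673. It had 10 reads and 0.49 TPM in technical replicate 2 (0.235 to 0.901), against 179 reads and 3.73 TPM in technical replicate 1 (3.20 to 4.32). Its TPM was lower in technical replicate 2 beyond counting error, but its TMM log2 ratio of -0.05 (-1.13 to 0.87) was called neither higher nor lower. The 10 reads leave that ratio uncertain by about 2 units of log2. Marco exceeded Msr1 by a TPM ratio of 159.6 in technical replicate 2 and 21.8 in technical replicate 1. The ratio of their read counts was 5.51 times as large in technical replicate 2 (2.91 to 11.7). It needs no scaling of the libraries but is not corrected for GC content. With the GC trend removed, described below, Marco stood at 1.16 and Msr1 at 1.54 (0.45 to 2.45) on the log2 scale. That order is the opposite of the one in reads, though the interval of Msr1 holds the value of Marco. With GC and length trends removed, Marco stood at 0.60 and Msr1 at 1.85. The length used for Marco, given below, is shorter than that of its leading transcript.

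The class B receptors span the membrane at both ends and handle lipids. Cd36, which takes up long-chain fatty acids and oxidised lipoprotein, lies at chr5:17781690-17888801. It had 214 reads and 11.16 TPM in technical replicate 2 (9.71 to 12.8), against 10480 reads and 166.75 TPM in technical replicate 1 (164 to 170.0). The TPM was 14.9-fold lower in technical replicate 2, and the TMM log2 ratio was -1.50 (-1.70 to -1.30), called lower. The transcripts of Cd36 had the lowest GC content of the group, 38.4%, against a median of 50.2% over the tested genes, and with the trend of the ratio with GC removed its log2 ratio was 0.29 (0.09 to 0.48), on the other side of equality.

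Scarb1, the receptor through which cells take cholesterol from high-density lipoprotein, lies at chr5:125277087-125341094. It had 60 reads and 4.56 TPM in technical replicate 2 (3.48 to 5.87), against 1122 reads and 26.19 TPM in technical replicate 1 (24.7 to 27.8). The log2 ratio of Scarb1 after TMM, -0.11 (-0.51 to 0.27), was called neither. Scarb2, a lysosomal membrane protein (LIMP-2) that carries glucocerebrosidase to the lysosome, lies at chr5:92441314-92506833. It had 162 reads and 13.97 TPM in technical replicate 2 (11.9 to 16.3), against 2652 reads and 72.20 TPM in technical replicate 1 (69.5 to 75.0). Its TMM log2 ratio was 0.08 (-0.15 to 0.31), also neither, and it was -1.18 by total counts and -2.37 by TPM. Without a correction for GC content, Scarb1 over Scarb2 had a TPM ratio of 0.326 in technical replicate 2 and 0.363 in technical replicate 1. The change in their ratio of reads was 0.875 (0.634 to 1.19), an interval that holds equality. With the GC trend removed, described below, Scarb1 stood at -0.99 and Scarb2 at 1.06 on the log2 scale, so they no longer stood level. Cd36 relative to Scarb2 had a TPM ratio of 0.799 in technical replicate 2 and 2.31 in technical replicate 1, and its ratio of reads was 0.334 times as large in technical replicate 2 (0.270 to 0.414). With the GC trend removed, Cd36 stood at 0.29 and Scarb2 at 1.06, a smaller gap in the same direction.

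The class H receptors Stab1 and Stab2 are large proteins of sinusoidal endothelium, and Stab1 is also made by macrophages. Both clear debris and modified proteins from blood, and Stab2 takes up hyaluronan. Stab1 lies at chr14:31139013-31168641 and had 102 reads and 53.84 TPM in technical replicate 2 (43.9 to 65.4), against 405 reads and 18.59 TPM in technical replicate 1 (16.8 to 20.5). Its TMM log2 ratio was 2.13 (1.80 to 2.44), called higher, and it was 0.87 (0.54 to 1.18) by total counts, which was not called, and 1.53 by TPM. Stab2, at chr10:86841198-87008025, had 151 reads and 3.18 TPM in technical replicate 2 (2.69 to 3.73), against 4421 reads and 45.22 TPM in technical replicate 1 (43.9 to 46.6). Its TMM log2 ratio was -0.75, with -0.52 as the upper bound of its interval, and it was called neither. Stab2 was called lower by total counts (-2.02), by TPM (-3.83), with no filter on low values (-1.04), with at least 10 counts in each library (-1.14) and where the interval only had to exclude equality. The TPM of Stab2 was 14.2-fold lower in technical replicate 2. The TPM of Stab1 over that of Stab2 was 16.9 in technical replicate 2 and 0.411 in technical replicate 1. Their ratio of reads was 7.37 times as large in technical replicate 2 (5.56 to 9.74). With the GC trend removed, Stab1 stood at 1.08 and Stab2 at -0.55 on the log2 scale, a smaller gap in the same direction.

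The TPM of Stab1 depends on the transcript to which its reads were assigned. In technical replicate 2, 85.58 of its 102 reads were assigned to the 413-base Stab1-207, whose junction is printed above, and 0 of 102 to the 7999-base Stab1-201, which allows a share of up to 2.94%. In technical replicate 1, 25.48 of 405 reads were assigned to Stab1-207 and 193.54 to Stab1-201. The effective length that turns reads into TPM was 323 bases in technical replicate 2, against 1138 bases in technical replicate 1. With all reads of the gene set to Stab1-201 instead, Stab1 had 2.21 TPM in technical replicate 2 and 2.71 TPM in technical replicate 1, a ratio of 0.815 in place of 2.90. With each of the 10 genes set to its own longest transcript in this way, Stab1 was at position 7 in technical replicate 2 and position 9 in technical replicate 1. The 3′ end of Stab1 overlaps the opposite-strand gene Nt5dc2 by 112 bases. Nt5dc2 had 4 reads in technical replicate 2 and 30 in technical replicate 1, and whether strand was used in counting is not given in the sources used here. The antisense genes and pseudogenes annotated across Stab2 had at most 1 read in either library.

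The lectin receptors of the marginal zone, Cd209b and Siglec1, were among the genes lowest in technical replicate 2. Cd209b, which binds bacterial polysaccharides and dextran, lies at chr8:3917655-3926844. It had 10 reads and 0.89 TPM in technical replicate 2 (0.427 to 1.64), against 556 reads and 16.84 TPM in technical replicate 1 (15.5 to 18.3). Cd209b was called lower, with a TMM log2 ratio of -1.68 (-2.75 to -0.79), and the call was lost at 2-fold, with a 99% interval and with the GC trend removed. Siglec1, which binds sialic acids on cells and pathogens, lies at chr2:131069220-131086765. It had 12 reads and 0.33 TPM in technical replicate 2 (0.171 to 0.576), against 1302 reads and 11.15 TPM in technical replicate 1 (10.6 to 11.8). Its TMM log2 ratio of -2.64 (-3.60 to -1.84) was the lowest of the 10, and its TPM was 33.8-fold lower. The proportion of Cd209b to Siglec1 was 2.70 in TPM in technical replicate 2 and 1.51 in technical replicate 1, and the change in their ratio of reads, 1.95 (0.750 to 4.96), was not detectable at this depth.

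Marco was set against the marginal zone lectins Cd209b and Siglec1, and against Cd36, which is not a marginal zone marker. Marco relative to Cd209b had a TPM ratio of 87.9 in technical replicate 2 and 4.83 in technical replicate 1, and its ratio of reads was 17.1 times as large in technical replicate 2 (9.17 to 36.1). Marco relative to Siglec1 had a TPM ratio of 236.9 in technical replicate 2 and 7.30 in technical replicate 1, with a change of 33.4 in the ratio of reads (18.9 to 65.1). Marco relative to Cd36 had a TPM ratio of 7.01 in technical replicate 2 and 0.488 in technical replicate 1, with a change of 15.1 (12.9 to 17.7). With the GC trend removed, as described below, Marco stood at 1.16 on the log2 scale, Cd36 at 0.29, Cd209b at -0.89 (no longer called) and Siglec1 at -3.97, so the gaps to Cd36 and Cd209b were smaller and the gap to Siglec1 was not. With GC and length trends removed, Marco at 0.60 stood below Cd36 at 0.86, the opposite direction. That setting takes 1147.5 bases as the length of Marco, while its leading transcript, Marco-201, has 1925 bases. In bulk tissue, fewer cells of a type and less RNA per cell cannot be told apart, and the labels give both libraries the same animal and tissue. These pairs were chosen with earlier results of the data known, so they are descriptions.

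Nr1h3, the nuclear receptor of the group, lies at chr2:91184061-91202834. It had 321 reads and 32.79 TPM in technical replicate 2 (29.3 to 36.6), against 415 reads and 19.43 TPM in technical replicate 1 (17.6 to 21.4). The TPM intervals do not overlap, and the TPM was 1.69-fold higher in technical replicate 2. Its TMM log2 ratio of 3.75 (3.53 to 3.96) was the highest of the 10 and above that of 94.98% of the tested genes. Nr1h3 ranked 1450 by TPM in technical replicate 2 and 6295 in technical replicate 1. The ratio of its reads to those of Scarb2 was 12.6 times as large in technical replicate 2 (10.2 to 15.8), without a correction for GC content. With the GC trend removed, Nr1h3 stood at 2.35 and Scarb2 at 1.06 on the log2 scale, a smaller gap in the same direction. With GC and length trends removed, Nr1h3 stood at 2.11 and Scarb2 at 1.24.

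The ratio between the libraries followed GC content over the whole transcriptome. The tested genes were put into 10 equal bins by GC content. In the bin with the lowest GC content (median 40.7%) the median TMM log2 ratio was -1.66, and in the bin with the highest (median 59.2%) it was 2.27. Over 12437 tested genes Spearman's rho of ratio with GC was 0.51, given as a description because genes are not independent replicates. Among the 10 genes, Nr1h3 had the highest GC content (56.98%), followed by Siglec1 (56.0%), Marco (55.9%), Stab1 (55.4%) and Scarb1 (55.0%), and Cd36 and Msr1 had the lowest (38.4% and 42.0%). With the running median over GC removed, Nr1h3 stood at 2.35 (2.14 to 2.57), Marco at 1.16 (1.04 to 1.27) and Stab1 at 1.08 (0.75 to 1.40), all still called higher. With a length trend removed as well, Marco stood at 0.60 (0.49 to 0.72) and was no longer called. The length taken for a gene is the plain mean over its annotated transcripts, 1147.5 bases for Marco. Marco-201, which held 100% of the TPM in technical replicate 2 and 98.71% in technical replicate 1, has 1925 bases. With the GC trend alone removed, Siglec1 stood at -3.97 (-4.93 to -3.16), further from 0 than without the correction. Scarb2, at 46.3% GC, stood at 1.06 (0.82 to 1.29) and was called higher, and Scarb1 stood at -0.99 (-1.39 to -0.61) and was called lower, although neither gene was called by TMM alone. Msr1 stood at 1.54 (0.45 to 2.45) and Stab2, at 51.7% GC, at -0.55 (-0.79 to -0.32), and neither was called. Cd209b, at 48.7% GC, stood at -0.89 (-1.96 to 0.00) and was no longer called. The part of GC content in these results was not tested beyond this correction.

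**Figure D3:**
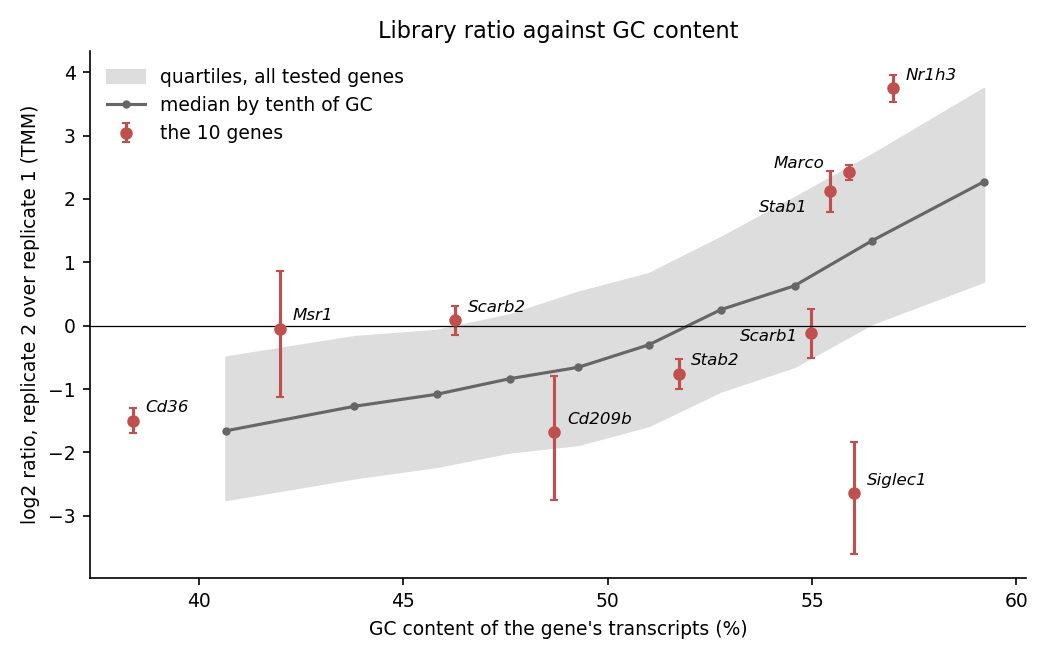
TMM log2 ratio of technical replicate 2 over technical replicate 1 against the mean GC content of a gene's transcripts, for the 10 genes (red, with exact 95% counting intervals) and for all tested genes in 10 bins of GC (line, median; band, quartiles). Nr1h3 lies above and Siglec1 below the quartile band. The points of Msr1 and Scarb2 lie slightly above the band, with intervals that reach into it. Cd36 lies left of the lowest bin's median, at 38.4%.

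The deposited transcript tables divide each gene's TPM among its annotated transcripts as a percentage called IsoPct. The 10 genes have 54 annotated transcripts, of which 13 were given reads in technical replicate 2 and 41 in technical replicate 1. Of the 9 genes with 2 or more transcripts, 7 had all of their TPM on 1 transcript in technical replicate 2 and 0 did in technical replicate 1. Among 8561 tested genes of this kind the shares were 53.8% in technical replicate 2 and 7.28% in technical replicate 1. The part of depth in this difference was not tested. The posterior shares in the same deposited tables were lower in technical replicate 2, at 42.97% for Cd209b-201, 61.26% for Stab2-201, 63.91% for Cd36-204, 73.33% for Siglec1-201, 80.69% for Msr1-202, 84.33% for Nr1h3-201 and 99.08% for Marco-201. Both libraries shared the leading transcript in 8 of the 9 genes, beside 57.2% of the 8561. Scarb2 has 1 annotated transcript and could not be compared.

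**Figure D4:**
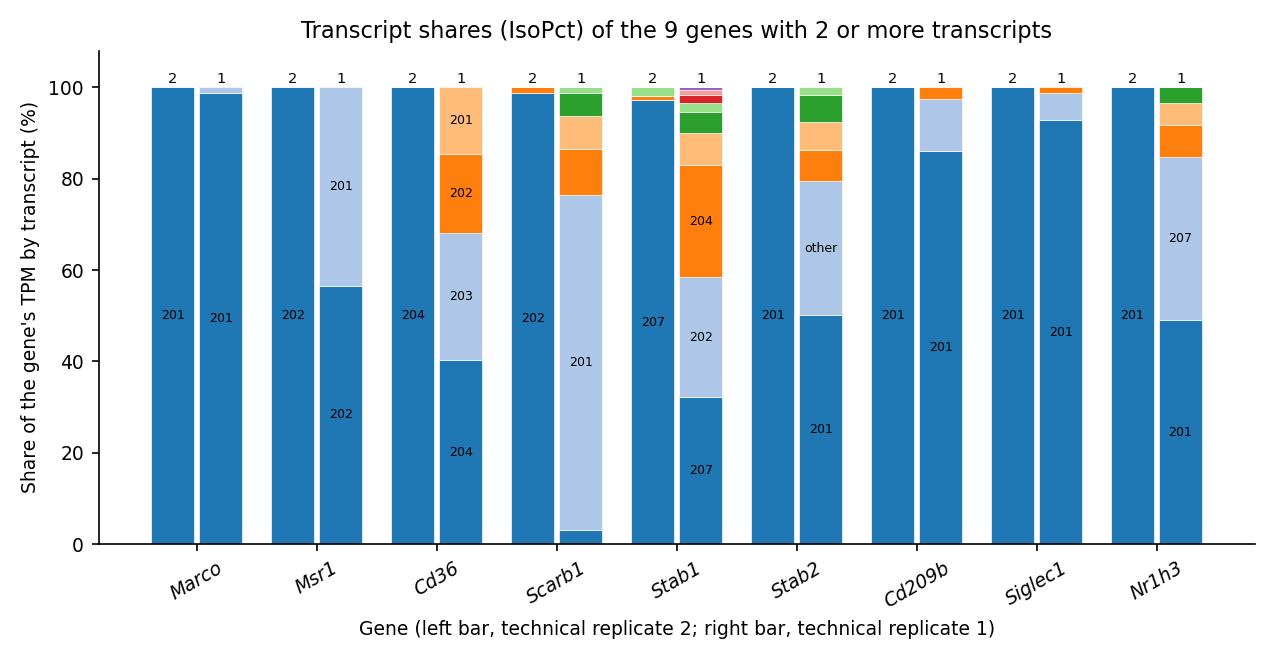
IsoPct of each annotated transcript (stacked, from 0 to 100%) for the 9 genes with 2 or more transcripts, with technical replicate 2 on the left of each pair and technical replicate 1 on the right, and transcript numbers in the larger segments. The leading segment changes in Scarb1, and in 7 genes the left bar is a single colour.

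Scarb1 was the gene whose leading transcript changed. In technical replicate 2, Scarb1-202, which carries the junction printed above, held 98.74% of the TPM and 59 of 60 reads. In technical replicate 1 it held 3.06% of the TPM and 33.41 of 1122 reads. Scarb1-201, with the 129-base exon, was given 0 of 60 reads in technical replicate 2, which allows a share of up to 5.0%, and 856.82 of 1122 reads in technical replicate 1, or 73.35% of the TPM. The exact 95% binomial intervals of the Scarb1-202 share of reads were 91.1% to 99.96% in technical replicate 2 and 2.03% to 4.11% in technical replicate 1, and they do not overlap. These are estimated assignments of reads that mostly fall on shared exons, while the limit and the intervals take assigned reads as observed. The posterior estimate in the same deposited tables gave Scarb1-202 47.83% and Scarb1-201 10.98% in technical replicate 2. In technical replicate 1 it gave 4.67% and 64.82%, which keeps the order of each library with a smaller gap. These posterior shares are of TPM, while the 5.0% limit and the 91.1% to 99.96% interval are of reads, so they are not directly comparable. The limit and the interval leave out the uncertainty of assignment and therefore do not bound the shares.

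Msr1-202 and Msr1-201 correspond to the type II form, which ends in a short tail, and the type I form, which ends in a cysteine-rich domain. Msr1-202 held 100% of the TPM in technical replicate 2, from 10 reads, and 56.54% in technical replicate 1, from 139.40 of 179 reads. Msr1-201 was given 0 of 10 reads in technical replicate 2, which allows a share of up to 30%, and 39.60 of 179 reads (22.1%) in technical replicate 1. The share in technical replicate 1 lies under that limit, so a difference in the 2 forms was not detectable at this depth.

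**Figure D5:**
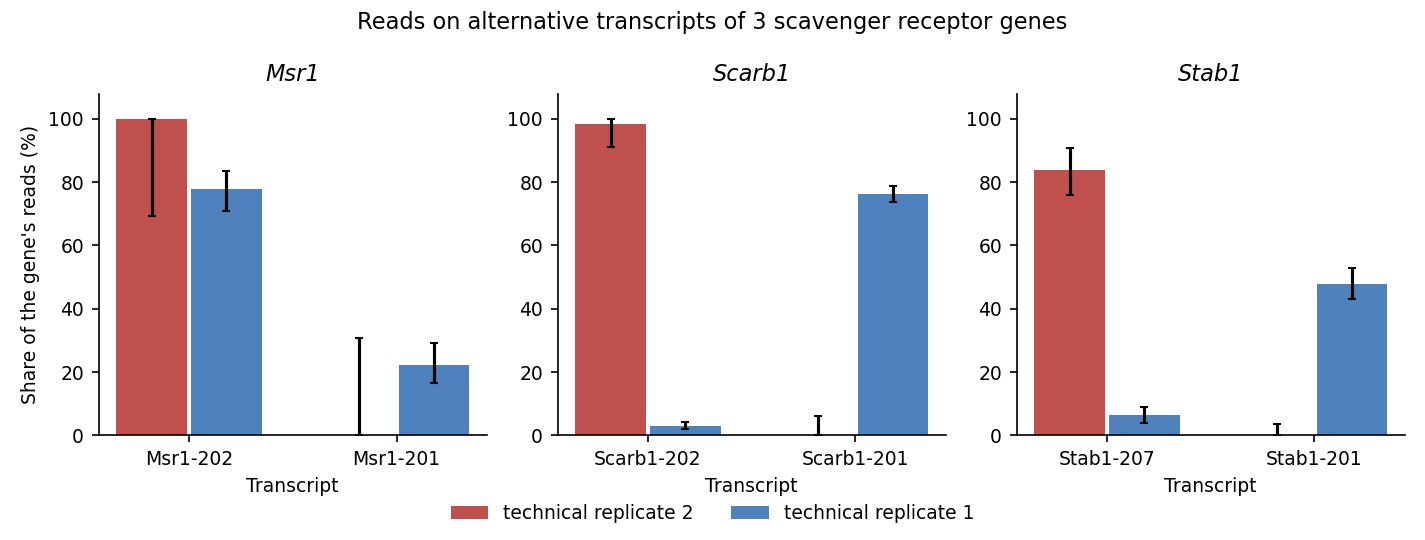
Share of each gene's reads (%) assigned to 2 alternative transcripts of Msr1, Scarb1 and Stab1 in technical replicate 2 (red) and technical replicate 1 (blue). Bars carry exact 95% binomial intervals that take assigned reads as observed. The libraries' intervals overlap for both forms of Msr1 and stand apart for both forms of Scarb1 and Stab1.

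Among the other genes, the leading transcript in both libraries was Cd36-204, with 100% of the TPM in technical replicate 2 and 40.24% in technical replicate 1. The other 3 Cd36 transcripts held 27.83%, 17.41% and 14.52% in technical replicate 1. Stab2-201 held 100% in technical replicate 2 and 50.07% in technical replicate 1, where a 3504-base transcript with no match in the reference annotation held 29.39%. Nr1h3-201 held 100% in technical replicate 2 and 49.07% in technical replicate 1, where the 378-base non-coding Nr1h3-207 held 35.77% of the TPM from 25.02 of 415 reads. In technical replicate 2, Nr1h3-207 was given 0 of 321 reads, which allows up to 0.935% of reads if assigned reads are taken as observed. Its posterior share there was 2.03% of the TPM. A short transcript counts for more in TPM than in reads, so that share cannot be set against the limit. Marco-201 held 100% in technical replicate 2 and 98.71% in technical replicate 1, Siglec1-201 held 100% in technical replicate 2 and 92.79% in technical replicate 1, and Cd209b-201 held 100% in technical replicate 2, from 10 reads and with a posterior share of 42.97%, and 85.96% in technical replicate 1. Stab1-207 led Stab1 by IsoPct in both libraries, with 97.22% in technical replicate 2 and 32.17% in technical replicate 1. In technical replicate 1, however, Stab1-202 led by posterior share (31.61% against 27.52%) and Stab1-201 led by reads (193.54 against 25.48), so by either measure Stab1 no longer shared its leading transcript between the libraries.

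The other scavenger receptors, a list of 15 genes with 11 tested, held 5 genes called higher and 3 lower in technical replicate 2, with a median TMM log2 ratio of 0.58 beside -0.27 over all tested genes. For this list and those that follow, the shares over all tested genes were again 28.0% higher and 32.6% lower, and with the GC trend removed the median over all tested genes was 0, against 0.77 for this list. Mrc1, the macrophage mannose receptor, had 17.49 TPM in technical replicate 2 and 65.14 TPM in technical replicate 1, with a log2 ratio of -0.65, called neither. Cd5l, a secreted scavenger protein and a target of Nr1h3 in mouse macrophages, had 12.90 TPM in technical replicate 2 and 47.49 TPM in technical replicate 1, also neither at 0.58. Cd68, a lysosomal glycoprotein of macrophages, was lower, with 9 reads in technical replicate 2 against 1141 in technical replicate 1 and a log2 ratio of -2.87. Scarf2 had the highest ratio, 4.48, and Scara3 the lowest, -3.27, with 2 reads in technical replicate 2 against 334 in technical replicate 1.

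Of the C-type lectin receptors, 11 of 15 were tested, and 2 were higher and 4 lower in technical replicate 2, near the shares over all tested genes, with a median of -0.30 that turned to 0.69 with the GC trend removed. Clec4n (dectin-2), a receptor for fungal mannans, was lower, with 10.03 TPM in technical replicate 2 and a log2 ratio of -1.08. Clec4a1 was higher at 1.02, Clec12a was neither at 0.42, Clec10a had the highest ratio at 1.25 and Clec4a3 the lowest at -3.28. Cd209c, Cd209e and Cd209f, relatives of Cd209b, were listed at 0 in technical replicate 2, against 64, 56 and 4 reads in technical replicate 1. Also at 0 were Clec4e, with 151 reads in technical replicate 1, and Clec4f, with 0 there too. Other relatives had reads in both libraries, such as Cd209a (lower at -1.59) and Cd209d (neither at 0.37). Over all 43346 genes, 14177 were above 0 TPM in technical replicate 2 and 20093 in technical replicate 1. Of the Siglec family, 5 of 9 genes were tested, with 1 higher, 2 lower and a median of -1.03, or -0.27 with the GC trend removed. Siglece was higher at 3.25, with 346 reads in technical replicate 2 against 629 in technical replicate 1. Cd33 was lowest at -1.86, Cd22, an inhibitory receptor of B cells, was lower at -1.25, and Siglecg, also of B cells, was neither at 0.33.

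Of the 16 partners and targets of LXR, all were tested, and 6 were higher and 4 lower in technical replicate 2, beside 28.0% and 32.6% of all tested genes, with a median of 0.14 that turned to -1.07 with the GC trend removed. Apoe, a lipid carrier and target of Nr1h3, was higher at 2.44, with 245.7 TPM in technical replicate 2 and 230.5 TPM in technical replicate 1, and stood at 0.046 with the GC trend removed. Srebf1, the regulator of fatty acid synthesis, had the highest ratio at 3.26 (0.85 with the GC trend removed, and below equality by TPM), Arl4c was higher at 1.35 and Scd1, a fatty acid desaturase, was neither at -0.23. Mylip, which marks the low-density lipoprotein receptor for breakdown, had the lowest ratio, -6.54, on 2 reads in technical replicate 2 against 3237 in technical replicate 1. Of the lipid uptake and storage genes, 8 of 11 were tested, with 5 higher, 1 lower and a median of 1.52, or 1.24 with the GC trend removed. Ppard was highest at 3.66, Fabp4 was higher at 2.28, Soat1 was neither at 0.15 and Fabp5 was the lower gene at -1.66. All 9 lysosomal partners of Scarb2 were tested, and 4 were higher and 1 lower, with a median of 0.47, or 0.71 with the GC trend removed. Ctsd, a lysosomal protease, was highest at 2.75, Cd63 was higher at 2.30, Lamp1 was neither at 0.47 and Lipa, which breaks down lysosomal cholesteryl esters, was lower at -2.70.

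The marginal zone niche list holds not only signals but also the receptors Ltbr, Tnfrsf11a and Csf1r. All 12 genes were tested, and 7 were higher and 3 lower in technical replicate 2, beside 28.0% and 32.6% of all tested genes. The median was 1.40, or 0.79 with the GC trend removed. Of the receptors, Ltbr was higher at 3.64, and Csf1r and Tnfrsf11a were lower at -1.15 and -1.94. Ltb, a subunit of lymphotoxin, was highest at 4.64 (1.75 with the GC trend removed), with 476.3 TPM in technical replicate 2 and 76.61 TPM in technical replicate 1. The T zone chemokines Ccl19 and Ccl21a were higher at 4.22 and 3.0, or 2.89 and 1.75 with the GC trend removed. Cxcl13, the B follicle chemokine, was lowest at -2.81, with 10.83 TPM in technical replicate 2 and 428.4 TPM in technical replicate 1. By TPM the list had a median log2 ratio of -1.07, beside -2.70 over all tested genes.

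Markers of cell types that share these receptors were summed in TPM, on a scale where the median log2 ratio of all tested genes was -2.70. Their calls stand beside 28.0% higher and 32.6% lower over all tested genes. Their zeros stand beside 14177 of 43346 genes above 0 TPM in technical replicate 2 and 20093 in technical replicate 1. Red pulp macrophage markers summed to 240.7 TPM in technical replicate 2 and 1383 TPM in technical replicate 1, with 2 of 9 tested genes higher and 5 lower, and 0 of the 10 listed at 0. Endothelial markers summed to 190.3 TPM in technical replicate 2 and 225.0 TPM in technical replicate 1, with 2 of 9 tested higher, 1 lower and Lyve1 at 0 in technical replicate 2. Plvap held 123.72 TPM of this sum in technical replicate 2 and 40.04 TPM in technical replicate 1. Pecam1 went the other way, with 52.11 TPM in technical replicate 2 and 111.82 TPM in technical replicate 1. Platelet and megakaryocyte markers summed to 177.6 TPM in technical replicate 2 and 148.8 TPM in technical replicate 1 (4 of 6 tested higher, 2 lower, Gp1ba at 0 in technical replicate 2). Itga2b held 99.53 TPM of this sum in technical replicate 2 and 3.51 TPM in technical replicate 1. Ppbp went the other way, with 4.68 TPM in technical replicate 2 and 89.92 TPM in technical replicate 1. Adipocyte markers summed to 93.95 TPM in technical replicate 2 and 64.90 TPM in technical replicate 1 (3 of 4 tested higher, with Lep and Plin1 at 0 in technical replicate 2). Cfd held 43.42 TPM of this sum in technical replicate 2 and 0.79 TPM in technical replicate 1. Fabp4 held 32.26 TPM in technical replicate 2 and 35.04 TPM in technical replicate 1. B cell markers summed to 1290.21 TPM in technical replicate 2 and 3823 TPM in technical replicate 1 (3 of 8 tested higher, 5 lower), and T cell markers to 150.5 TPM in technical replicate 2 and 827.6 TPM in technical replicate 1 (1 of 8 tested higher, 4 lower). Liver markers summed to 9.82 TPM in technical replicate 2 and 11.63 TPM in technical replicate 1, with 2 of 2 tested genes higher. Of the 8, 6 were at 0 in technical replicate 2 and 4 in technical replicate 1. Pancreas markers summed to 4.60 TPM in technical replicate 2 and 76.41 TPM in technical replicate 1, with 3 of 6 tested genes lower and 5 of 8 at 0 in technical replicate 2, while all 8 reached 1 TPM in technical replicate 1. B cell, T cell and red pulp macrophage genes of a spleen were thus present in both libraries, though Trac was listed at 0 in technical replicate 2. Median log2 ratios follow by TMM and then with the GC trend removed, beside -0.27 and 0 over all tested genes. B cell markers turned from -0.89 to 0.36, and T cell markers went from -0.92 to -0.36. Red pulp macrophage markers had -0.84 and -0.40, endothelial 0.48 and 0.01, and platelet and megakaryocyte 1.90 and 0.93. Adipocyte markers had 1.88 and 3.16, liver 2.29 and 2.06, and pancreas -1.72 and -1.93. The part of cell content in the members' ratios was not tested.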

How the data were processed

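Technical replicate 2 and technical replicate 1 of 1 mouse spleen were compared by deposited gene and transcript tables on mm10 with GENCODE M4, per the file headers. The aligner and quantifier are not given in the sources used here. The authors deposited expected counts (estimated counts of reads per gene, here rounded to whole numbers), TPM with its interval bounds, FPKM (not used), and percent values of each gene's TPM by transcript (IsoPct). Totals were 3806381 counts in technical replicate 2 and 27528824 in technical replicate 1. Rows without an Ensembl ID held 2.10e-04% of the counts in technical replicate 2 and 1.09e-05% in technical replicate 1, and were left out. Symbols matched 42462 of 43346 IDs.

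The tested genes, 12467 with all 10 members among them, reached 1 TPM on average and 50 counts in the sum of the libraries. Libraries were scaled with TMM in edgeR 4.0.16 (R 4.3.3), and ratios have exact Clopper-Pearson 95% intervals conditional on the summed count. No p-value was possible. TPM intervals are exact Poisson intervals of the count. The TPM lay outside its deposited interval for 1 of the 10 members in technical replicate 2 and 3 in technical replicate 1. A count of 0 allows up to 3 counts of the total, and for transcripts this takes assigned reads as observed. The GC trend is a running median over 501 genes, with GC content from GENCODE M21 (12437 tested genes). A gene's GC content and length are plain means over its annotated transcripts, whatever their reads. The lengths of Marco and Stab2 are thus 1147.5 and 2165 bases, against 1925 and 8228 bases in their leading transcripts. The reference's Msr1-201 has 1424 bases, against 1467 in the deposited tables. Alternatives used DESeq2 1.42.0 size factors, total counts, TPM ratios, other filters, folds and interval levels. Calculations used Python 3.11.15 with scipy 1.17.1 and were tested on simulated data.

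Members and lists were chosen with earlier results of these data known. All 10 members are named, and of each pathway list the 3 genes with the highest mean TPM and the called genes with the highest and the lowest ratio. Cell type markers are given as sums, counts and median ratios.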

Additional observations from a re-analysis of the deposited data

How the results depend on the processing

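By total counts, 6 of the 10 genes were lower in technical replicate 2, and 1820 and 7295 of all tested genes were called higher and lower, against 3492 and 4060 after TMM. By the ratio of deposited TPM, 1 of the 10 was higher (Stab1) and 7 lower, with 883 and 9640 of all tested genes higher and lower. With GC and length trends removed, 5 of the 10 were higher (Msr1, Cd36, Stab1, Scarb2 and Nr1h3) and 2 lower (Scarb1 and Siglec1), beside 3354 and 3014 of all tested genes. In that setting, which takes 1147.5 bases as the length of Marco, Marco lost its call. With the GC trend alone removed, 4 were higher (Marco, Stab1, Scarb2 and Nr1h3) and 2 lower (Scarb1 and Siglec1), beside 3482 and 3119. Log2 ratios called on at least 1 side changed direction for Scarb2 by total counts (-1.18) and TPM (-2.37), Marco by TPM (-0.058), Cd36 with the GC trend removed (0.29) or GC and length removed (0.86), and Msr1 with GC and length removed (1.85). Without a call on either side, the sign also changed for Msr1 with DESeq2 (0.077) and the GC trend removed (1.54), Scarb1 with DESeq2 (0.014), and Scarb2 with no filter (-0.20) and at least 10 counts (-0.30). Members lower numbered 2 at 2-fold and with a 99% interval, which drop Cd209b, and 4 with no filter, at least 10 counts or an interval excluding equality, which add Stab2. Scaling by total counts shifts every ratio equally by construction, and the cause of the other changes was not tested. The leading transcript was shared by 8 of 9 genes by IsoPct and among coding transcripts, and by 7 by expected count or by the posterior shares, an alternative chosen after seeing the data, as was setting all reads to the longest transcript. Depth limits Msr1, Cd209b and Siglec1 most, with 10, 10 and 12 reads in technical replicate 2, and their ratios have the widest intervals. Leaving out a library was not possible with 1 on each side. No paired analysis was possible because each side holds 1 library.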
